A study of Bos taurus with 4 samples.

Results

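The genes described here take part in apoptosis and in follicle atresia, and they were compared between granulosa cells of good and poor donors of competent oocytes. The list held 29 genes, and a gene was taken from the arrays where the platform annotation gave its symbol to a probe. Of the 29 genes, 25 had such a probe, out of 15229 gene symbols on the arrays. A gene with several probes was represented by its brightest probe over all 8 channels. TNFRSF10B, BIK, BBC3 and PMAIP1 had no probe under these symbols and were not analysed here.

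Atresia is the loss of a follicle before ovulation, and apoptosis of the granulosa cells is one of its best known features. Apoptosis can start at the cell surface, where death receptors such as FAS gather the adaptor FADD and the initiator caspase CASP8, or at the mitochondrion, where BAX and BAK1 release factors that activate CASP9 on the scaffold APAF1. Proteins of the BCL2 family and XIAP restrain these steps, and the p53 protein turns on genes that stop the cell cycle or add to the death signal.

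Granulosa cells are the somatic cells that line the follicle and support the oocyte. Per the labels, the animals were Holstein cattle of a commercial embryo production facility, and all donors of both groups had received ovarian stimulation with coasting, a pause without hormone before collection. The good-donor pools were labelled Good for oocyte developmental competence and the poor-donor pools were labelled Poor. The design text names 94 heifers and cows and ties competent oocytes to cows and incompetent ones to heifers, while the title and the array names speak of heifers. It is therefore not settled by the labels if cows or heifers gave the good-donor pools, and they give neither ages nor the number of animals in a pool. The total RNA of a pool went through linear amplification and was then labelled with Cy5 or Cy3.

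Each of 4 arrays set 1 good-donor pool against 1 poor-donor pool, with the good-donor pool in Cy5 on arrays 1 and 2 and in Cy3 on arrays 3 and 4. Median foreground intensity was 49.9 to 54.3 in the Cy5 channels and 90.5 to 132 in the Cy3 channels. Ratios are log2 of good over poor, so a negative value means a higher signal in the poor-donor pool of that array. Their median over 31917 tested probes lay between -0.0071 and 0.0023 on the 4 arrays. Over all tested probes the ratios of array 1 had Pearson's r of -0.02, -0.34 and -0.07 with those of arrays 2, 3 and 4, and arrays 3 and 4 had r of 0.29, all as descriptions across probes that share the arrays. The p-values come from limma and measure the spread of 4 ratios between pools, which is not the spread between animals. In these bulk samples, fewer cells of a type and less RNA per cell cannot be told apart.

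Mean ratios of the apoptosis genes lay between -0.64 and 0.29, and the genes with the widest ratios did not keep one direction on all arrays. Of the 25 genes, 23 entered the tests, and 0 passed an adjusted p of 0.05 in limma with Benjamini-Hochberg adjustment over all tested probes, where the share called was 0%. At an unadjusted p under 0.05, limma called 1 of 23 genes, CASP6, which was lower in good-donor pools. The same rule called 3.55% of all tested probes, with 1.37% lower and 2.17% higher in good-donor pools, so the genes' share was near the background. The mean ratio was below 0 for 16 of the 23 tested genes, against 50.8% of all tested probes. No gene had a ratio above 0 on all 4 arrays (5.11% of all tested probes) and 1 had a ratio below 0 on all 4 (4.18%). In 0 genes did the 4 good-donor and the 4 poor-donor pools fail to overlap, against 1.90% of probes.

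The genes differed mainly in how far their ratios were scattered. In 8 of the 25 genes every ratio was within 0.25 of 0 on the log2 scale: FASLG, CFLAR, BAK1, BAD, BCL2L11, DIABLO, BCL2 and XIAP. All but DIABLO were dim, with mean log2 intensities in good-donor pools from 6.01 for BAD to 6.62 for BCL2L11, against 9.61 for DIABLO. The offset of 50, added before logs were taken, draws the ratios of dim probes towards 0. Small ratios of the dim genes therefore do not bound the change in RNA. The share of all tested probes within 0.25 was not counted. At the other end, CASP8, GADD45A and CLU had a 2-fold or larger ratio on at least 1 array. On a single array, 287 to 881 of the 31917 tested probes had such a ratio. The share of all tested probes with such a ratio on at least 1 array was not counted. The SD over arrays exceeded the size of the mean ratio in 24 of the 25 genes, all but CASP6. The share of all tested probes with such an SD was not counted, so this is not a trait of these genes alone. The 95% interval of the mean ratio, from limma's moderated spread, lay within a 2-fold change in either direction for 20 of the 23 tested genes. It reached beyond it for CASP8, GADD45A and CLU. The share of all tested probes with such an interval was not counted. For dim genes, among them FASLG, CFLAR, TNFRSF6B, BCL2L11, MDM2, BCL2 and XIAP, the interval bounds the measured ratio and not the change in RNA.

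**Figure D1:**
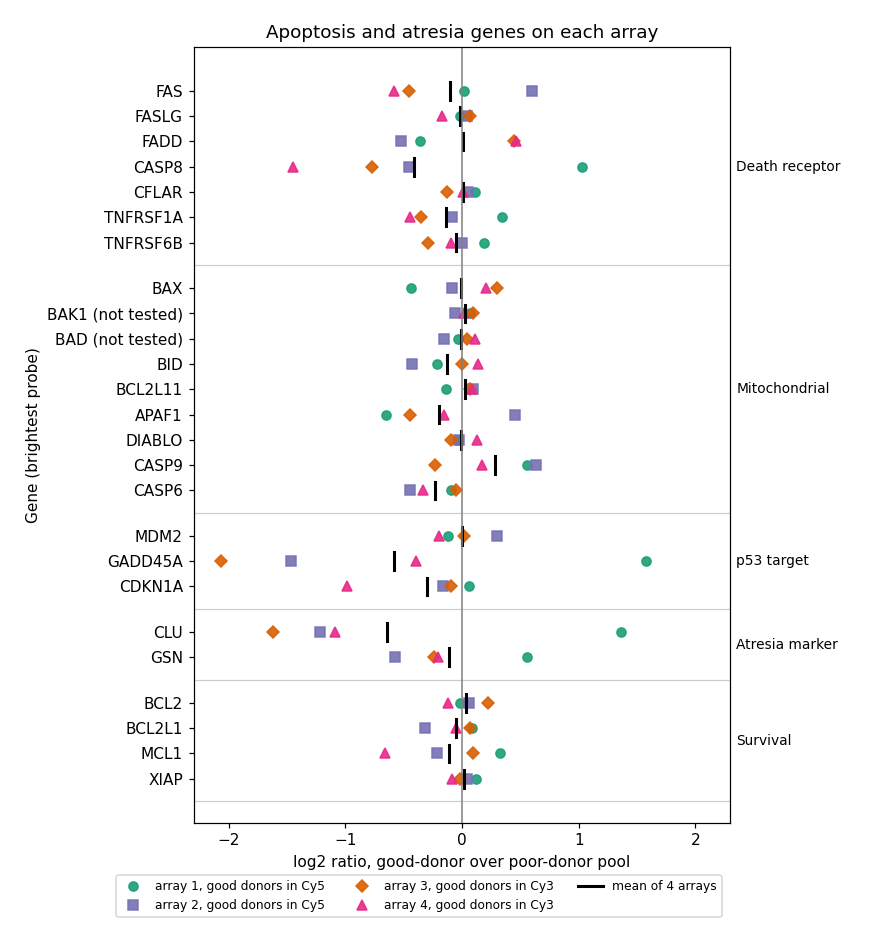
Log2 ratio of good-donor over poor-donor pool (x axis) of the brightest probe of each of 25 genes (y axis), grouped by role. Each symbol is 1 array, with its dye orientation in the key, and the black bar is the mean of 4 arrays. CLU, GADD45A and CASP8 spread from above 1 on array 1 to below -1 on at least 1 other array, while 8 genes stay within 0.25 of 0.

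Among the death receptor genes, 2 had a mean ratio above 0 and 5 below 0, and the median of their mean ratios was -0.05. CASP8, the initiator caspase that the receptors activate, had the widest scatter of this role. Its log2 normalized intensity was 8.15, 7.51, 6.60 and 7.19 in good-donor pools 1 to 4 and 7.13, 7.96, 7.37 and 8.64 in the poor-donor pools of the same arrays. The highest value came from the poor-donor pool of array 4 and the second highest from the good-donor pool of array 1, so the groups overlapped. The ratios were 1.03, -0.46, -0.77 and -1.45, with a mean of -0.41 ± 1.04 (SD, n = 4; limma, adjusted p = 1.00).

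TNFRSF1A, the main receptor for tumour necrosis factor, was measured at a narrower range. Its log2 intensity was 11.75, 11.45, 11.13 and 11.40 in good-donor pools and 11.41, 11.54, 11.48 and 11.84 in poor-donor pools. Both groups held values near 11.4, and array 1 was again the one with more signal in the good-donor pool. Its mean ratio was -0.13 ± 0.35 (SD, n = 4; limma, adjusted p = 1.00).

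FAS, the receptor of FAS ligand, had ratios of 0.02, 0.60, -0.46 and -0.58, and the adaptor FADD had ratios of -0.36, -0.53, 0.45 and 0.46. Both changed sign between the dye orientations, in opposite ways, so that their mean ratios of -0.10 ± 0.54 and 0.01 ± 0.52 (SD, n = 4) are averages of values that do not overlap between orientations. A second FADD probe had the same order of signs with smaller ratios, -0.06, -0.14, 0.11 and 0.18. FASLG, the ligand of FAS, and CFLAR, an inhibitor of CASP8 at the receptor, had mean ratios of -0.02 ± 0.11 and 0.01 ± 0.10. These genes were dim: FASLG was above the control spots in 7 of 8 channels, CFLAR in 6 of 8, and the decoy receptor TNFRSF6B in 6 of 8, with a mean ratio of -0.05 ± 0.20.

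Among the genes of the mitochondrial route, 3 had a mean ratio above 0 and 6 below, with a median of -0.0083. CASP6, an executioner caspase, was the gene with one direction on every array. Its log2 intensity was 8.78, 8.62, 8.93 and 8.89 in good-donor pools and 8.87, 9.07, 8.99 and 9.22 in poor-donor pools. On each array the poor-donor pool was the higher, and 3 of 4 poor-donor pools were above all good-donor pools, but the poor-donor pool of array 1 lay within the good-donor range. The mean ratio was -0.23 ± 0.19 (SD, n = 4), a signal 1.17-fold higher in poor-donor pools, with an adjusted p = 1.00 in limma. The unadjusted limma value was 0.0455, and the exact two-sided sign permutation test over 4 arrays gave p = 0.125, the smallest that 4 arrays allow. The unadjusted limma value was 0.218 with median in place of mean foreground and 0.0708 with a dye term, and it lay between 0.0424 and 0.142 when 1 array was left out. With median foreground, or with median centring in place of loess, CASP6 did not keep one direction on every array.

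CASP9, the initiator caspase of this route, had the largest mean ratio above 0 among the 25 genes. Its log2 intensity was 8.72, 8.92, 8.16 and 8.60 in good-donor pools and 8.16, 8.28, 8.39 and 8.43 in poor-donor pools. In 3 good-donor pools it was above every poor-donor pool, while the good-donor pool of array 3 was at the bottom of the range together with the poor-donor pool of array 1. The ratios were 0.56, 0.64, -0.23 and 0.17, with a mean of 0.29 ± 0.40 (SD, n = 4; limma, adjusted p = 1.00). Another CASP9 probe had a mean ratio of 0.11 ± 0.42, and a further one was above the control spots in 1 of 8 channels. CASP9 was called at the unadjusted threshold of 0.05 with a dye term in the fit, without array 3, or with median centring in place of loess.

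BAX, which permeabilises the mitochondrial outer membrane, did not separate the groups. Its log2 intensity was 7.07, 7.25, 7.75 and 7.38 in good-donor pools and 7.50, 7.34, 7.45 and 7.17 in poor-donor pools. The signal was higher in the poor-donor pool on arrays 1 and 2 and in the good-donor pool on arrays 3 and 4, which is the order of the dyes. Its mean ratio was -0.0043 ± 0.33 (SD, n = 4; limma, adjusted p = 1.00). BAK1, its partner protein, was above the control spots in 3 of 8 channels, and BAD, which binds and neutralises survival proteins, in 0 of 8, so neither was tested. Their mean ratios were 0.03 ± 0.07 and -0.01 ± 0.12 (SD, n = 4).

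For BID, APAF1, BCL2L11 and DIABLO the 95% interval of the mean ratio included 0. BID, which carries the death receptor signal to the mitochondrion, had ratios of -0.21, -0.43, -0.0023 and 0.13. APAF1, the scaffold on which CASP9 is activated, had ratios of -0.65, 0.46, -0.44 and -0.16 with a mean of -0.20 ± 0.48 (SD, n = 4). BCL2L11, which antagonises the survival proteins, and DIABLO, which the mitochondrion releases to block XIAP, had means of 0.03 ± 0.11 and -0.0083 ± 0.10. Their 95% intervals lay between -0.16 and 0.19. Without array 2, APAF1 was lower in good-donor pools on the remaining 3 arrays, at -0.42 ± 0.25 (SD, n = 3; limma, adjusted p = 1.00).

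The 3 p53 target genes differed in their scatter. GADD45A, a stress-induced gene that restrains the cell cycle, had log2 intensities of 8.94, 7.76, 7.38 and 8.25 in good-donor pools and 7.36, 9.22, 9.45 and 8.64 in poor-donor pools. On array 1 the good-donor pool was the higher by 1.58, and on arrays 2, 3 and 4 the poor-donor pool was the higher, with ratios of -1.47, -2.07 and -0.39. The good-donor pool of array 1 was above the poor-donor pools of arrays 1 and 4, so the groups overlapped. On average the ratio was -0.59 ± 1.60 (SD, n = 4; limma, adjusted p = 1.00). A dimmer GADD45A probe had ratios of -0.0011, -0.23, 0.05 and 0.18, so the probes of this gene did not show the same pattern.

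CDKN1A, the p21 inhibitor of cyclin-dependent kinases, had log2 intensities of 7.64, 7.28, 7.20 and 7.33 in good-donor pools and 7.59, 7.44, 7.30 and 8.32 in poor-donor pools. The poor-donor pool of array 4 stood alone at the top, and the other 7 pools mixed. The ratios were 0.06, -0.17, -0.10 and -0.99, with a mean of -0.30 ± 0.47 (SD, n = 4; limma, adjusted p = 1.00). MDM2, the ubiquitin ligase that removes p53, had ratios of -0.12, 0.30, 0.02 and -0.20 and a 95% interval from -0.25 to 0.25.

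CLU and GSN were the atresia genes on the list. CLU encodes clusterin, a secreted chaperone that is a classical marker of regressing tissue. Its log2 intensity was 10.94, 10.83, 9.41 and 10.32 in good-donor pools and 9.58, 12.05, 11.03 and 11.41 in poor-donor pools. The poor-donor pools of arrays 2, 3 and 4 were above all 4 good-donor pools, while the poor-donor pool of array 1 was the second lowest of the 8. The ratios were 1.36, -1.22, -1.62 and -1.09, with a mean of -0.64 ± 1.36 (SD, n = 4; limma, adjusted p = 1.00), which is 1.56-fold higher in poor-donor pools.

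A second CLU probe had the same order, with ratios of 0.92, -0.91, -1.30 and -0.91. A further CLU probe was above the control spots in 0 of 8 channels. GSN, the actin-severing protein gelsolin, had log2 intensities of 7.83, 7.67, 7.54 and 7.55 in good-donor pools and 7.27, 8.25, 7.77 and 7.76 in poor-donor pools. The lowest and the highest value both came from poor-donor pools, those of arrays 1 and 2, and the good-donor pools lay between them. The mean ratio was -0.12 ± 0.48 (SD, n = 4; limma, adjusted p = 1.00).

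**Figure D2:**
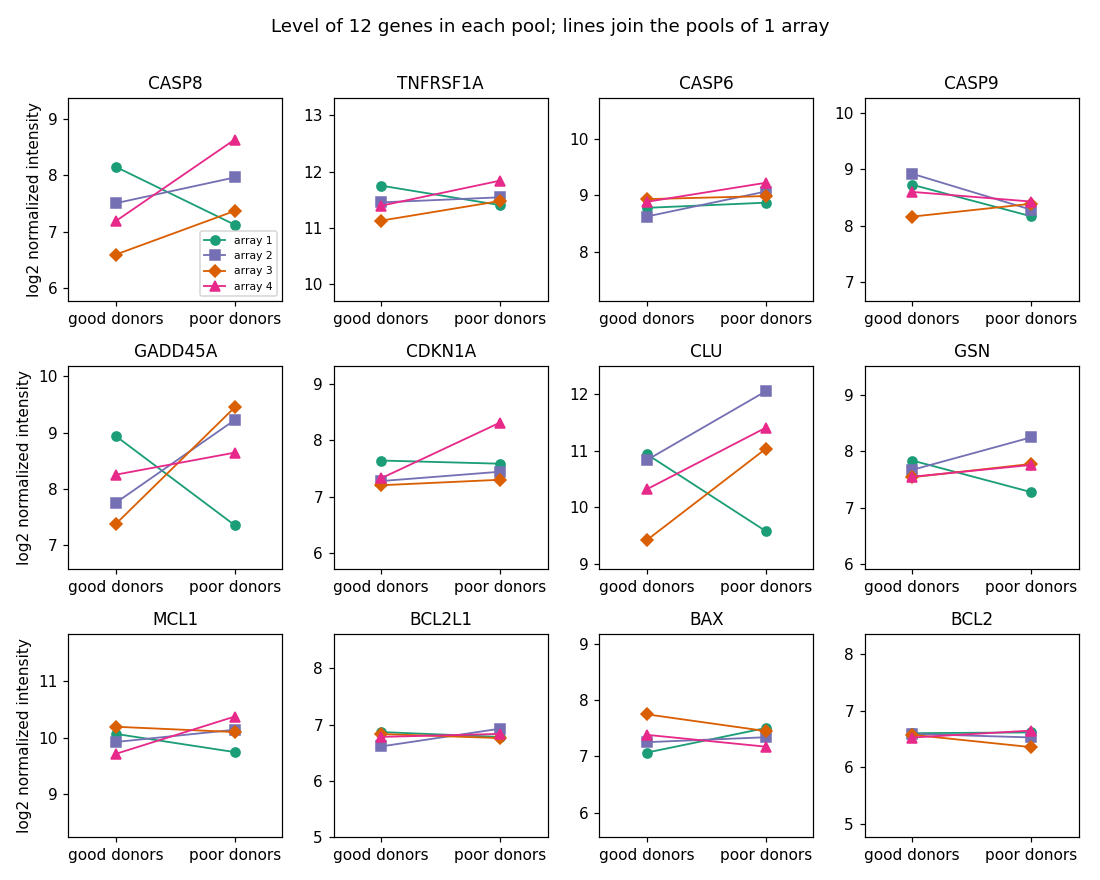
Log2 normalized intensity (y axis) of 12 genes in the good-donor and the poor-donor pool of each array (x axis), each panel spanning the same height, with lines joining the pools of 1 array. The line of array 1 falls for CLU, GADD45A, CASP8 and GSN while the lines of arrays 2, 3 and 4 rise, whereas for CASP6 the 4 lines rise.

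Genes that restrain apoptosis had small mean ratios, 2 above and 2 below 0. BCL2, BCL2L1 and XIAP were above the control spots in 8 of 8 channels but dim. Their mean log2 intensities in good-donor pools were 6.57, 6.77 and 6.48, against 9.97 for MCL1. Ratios of dim probes are drawn towards 0 by the offset, so small ratios of these 3 genes do not bound the change in RNA. MCL1, a short-lived survival protein of the BCL2 family, had log2 intensities of 10.06, 9.92, 10.19 and 9.71 in good-donor pools and 9.74, 10.14, 10.10 and 10.37 in poor-donor pools. The lowest values came from both groups, and the poor-donor pool of array 4 was the highest. Its mean ratio was -0.12 ± 0.43 (SD, n = 4; limma, adjusted p = 1.00), and other MCL1 probes had means of -0.0081 and -0.18.

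BCL2L1, which encodes the survival protein BCL-XL, had log2 intensities of 6.87, 6.61, 6.83 and 6.78 in good-donor pools and 6.78, 6.93, 6.76 and 6.83 in poor-donor pools. BCL2, the founding member of the family, had 6.60, 6.59, 6.57 and 6.53 in good-donor pools and 6.62, 6.53, 6.36 and 6.65 in poor-donor pools. For both genes the values of the groups were interleaved. The mean ratios were -0.05 ± 0.19 for BCL2L1 (SD, n = 4; limma, adjusted p = 1.00) and 0.04 ± 0.14 for BCL2 (SD, n = 4; limma, adjusted p = 1.00). The 95% intervals ran from -0.27 to 0.17 and from -0.15 to 0.22. Other BCL2L1 probes had means of -0.0062 and -0.12. XIAP, an inhibitor of executioner caspases, had ratios of 0.12, 0.04, -0.02 and -0.08.

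The balance of BAX against survival genes is a common summary of the mitochondrial route, and it was read here as the difference of log2 ratios on an array. BAX minus BCL2 was -0.42, -0.15, 0.08 and 0.33 on arrays 1 to 4, with a mean of -0.04 ± 0.32. BAX minus BCL2L1 was 0.05 ± 0.38 and BAX minus MCL1 was 0.11 ± 0.67 (SD, n = 4). In each case the SD exceeded the mean, and array 1 had the lowest value. BCL2 and BCL2L1 were dim, with ratios drawn towards 0, so the differences with them are a poor measure of the balance.

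Array 1 stood against the other arrays in 8 of the 23 tested genes, that is, its ratio had one sign and the ratios of arrays 2, 3 and 4 the other, against 13.1% of all tested probes. In CASP8, TNFRSF1A, TNFRSF6B, GADD45A, CDKN1A, CLU and GSN the ratio of array 1 was the one above 0, and in BCL2L11 it was the one below 0. Over the 25 genes the ratios of array 1 had Pearson's r of -0.64, -0.83 and -0.59 with those of arrays 2, 3 and 4 (Spearman's rho -0.33, -0.56 and -0.54). Arrays 2 and 3 had r of 0.59 but rho of 0.11, arrays 2 and 4 had 0.31 and 0.26, and arrays 3 and 4 had 0.55 and 0.56. These values describe genes that share arrays and are no test.

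Without array 1, limma called 5 of 23 genes at an unadjusted p under 0.05, all lower in good-donor pools, against 5.34% of all tested probes and 3.01% in that direction. CLU was then at -1.31 ± 0.28 (SD, n = 3; limma, adjusted p = 0.551), which is 2.48-fold higher in poor-donor pools, and its second probe was at -1.04. GADD45A was at -1.31 ± 0.85 (SD, n = 3; limma, adjusted p = 0.856) and CASP8 at -0.89 ± 0.50 (SD, n = 3; limma, adjusted p = 0.848). GSN and TNFRSF1A were at -0.34 ± 0.21 and -0.29 ± 0.18, both also lower on 3 of 3 arrays. No gene and no probe passed the adjusted threshold without array 1, where the smallest adjusted p of all probes was 0.498.

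Array 1 was singled out after its values were seen. Leaving out another array gave other calls, with means nearer to 0 in some cases and farther from 0 in others. GADD45A at -0.65 ± 1.96 without array 4 and CDKN1A at -0.37 ± 0.55 without array 3 (SD, n = 3) were farther from 0 than with all arrays. The means given next were nearer to 0. Without array 3, CLU was at -0.32 ± 1.45 and GADD45A at -0.09 ± 1.55 (SD, n = 3). Without array 4, CASP8 was at -0.07 ± 0.96, CDKN1A at -0.07 ± 0.11 and TNFRSF1A at -0.03 ± 0.35 (SD, n = 3). GSN was at 0.04 ± 0.45 without array 2, with the other sign. Without array 2 limma called APAF1 alone, against 4.29% of probes. Without array 3 it called CASP6 and CASP9, against 2.89%. Without array 4 it called 0 of 23 genes, against 3.46%. The calls among these genes thus rested on which pools were included.

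**Figure D3:**
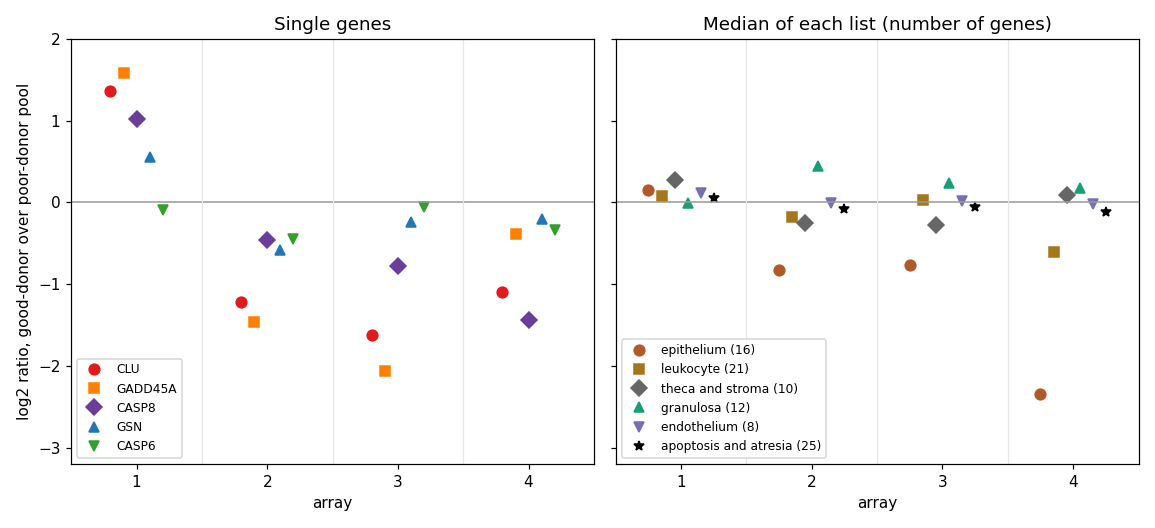
Log2 ratio of good-donor over poor-donor pool (y axis) on each of the 4 arrays (x axis), for 5 single genes on the left and as the median of each gene list on the right, where the key gives the number of genes. CLU, GADD45A, CASP8 and GSN are above 0 on array 1 and below 0 on arrays 2, 3 and 4, and the median of epithelium markers runs from 0.15 on array 1 to -2.35 on array 4.

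Genes listed as markers of other cell types moved between the arrays beside these genes, and which cells expressed them was not tested. The 16 epithelium markers had median ratios of 0.15, -0.83, -0.77 and -2.35 on arrays 1 to 4, and 15 of 16 had a mean below 0. Their summed level was 13.08 to 14.92 on the log2 scale in good-donor pools and 14.19 to 16.31 in poor-donor pools, and 0 of the 16 were at the level of the control spots in every channel. Of these, OVGP1, an oviduct glycoprotein, had ratios of 4.49, -2.28, -3.62 and -0.50, and the keratin KRT18 had 1.74, -1.31, -2.82 and -0.58. These are the signs of CLU and GADD45A on every array, and OVGP1 and KRT18 were named for it after their values were seen. In 8 of the 16 markers array 1 had one sign and arrays 2, 3 and 4 the other, against 13.1% of all tested probes. Besides OVGP1 and KRT18 these were KRT7, KRT8, KRT19, CLDN4, CLDN7 and MUC1, each above 0 on array 1. Of the other epithelium markers, EPCAM, KRT4, WFDC2 and PIGR were below 0 on all 4 arrays, array 1 included. Their mean ratios were -1.37 ± 1.16, -3.22 ± 2.27, -1.50 ± 1.05 and -1.82 ± 1.23 (SD, n = 4; limma, adjusted p = 1.00 for each). Of 13 tested epithelium markers, limma called these 4 at an unadjusted p under 0.05, against 3.55% of all tested probes and 1.37% in that direction.

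Leukocyte markers, 21 genes with a probe of 25 listed, had median ratios of 0.08, -0.18, 0.03 and -0.61, and 20 of 21 had a mean below 0. Their summed level was 11.18 to 11.89 in good-donor and 11.53 to 13.06 in poor-donor pools, with CD79A and ITGAM not above the control spots in any channel. Theca and stroma markers, 10 genes, had medians of 0.27, -0.25, -0.28 and 0.09, and summed levels of 12.68 to 13.32 against 12.67 to 13.53. Endothelium markers, 8 genes, had medians between -0.03 and 0.11, summed levels of 9.27 to 9.58 in good-donor and 9.26 to 9.49 in poor-donor pools, and PECAM1 was not above the control spots in any channel.

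The labelled cell type was checked with 12 granulosa markers, and 0 of them were at the level of the control spots in every channel. FOXL2 was above the control spots in 4 of 4 good-donor pools but in 2 of 4 poor-donor pools. All 12 had a mean ratio above 0, while 50.8% of all tested probes had a mean below 0. Their median ratios were -0.01, 0.44, 0.24 and 0.18 on arrays 1 to 4. The SD over arrays exceeded the mean in 9 of the 12. The ratios of 5 of the 12 changed sign between the dye orientations, against 29.4% of all tested probes. Among these, INHA and INHBA were above 0 on arrays 1 and 2, while CYP19A1, CYP11A1 and NR5A1 were below 0 there. Limma called 2 of 12 at an unadjusted p under 0.05, LHCGR and FOXL2, both higher in good-donor pools, against 2.17% of all tested probes in that direction. The summed level of the granulosa markers was 16.18 to 16.88 in good-donor pools and 15.65 to 16.80 in poor-donor pools. In the poor-donor pools of arrays 2 and 4 it was 15.65 and 16.66, with the epithelium markers close below at 15.46 and 16.31. The gap was wider in the other pools. A summed level is set mostly by the brightest genes of a list. INHA and INHBA were at 15.46 and 15.53 in the good-donor pool of array 1, where the granulosa sum was 16.88. In the poor-donor pool of array 2 they were at 13.76 and 13.70, where the sum was 15.65. The sums therefore do not measure shares of cell types. Of 8 oocyte markers, 4 had a mean above 0 and 4 below, and GDF9 was not above the control spots in any channel. The part of these markers in the ratios of CLU, GADD45A, CASP8 and the other apoptosis genes was not tested.

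The dye orientation was followed by 4 of the 23 tested genes, whose ratios had one sign on arrays 1 and 2 and the other on arrays 3 and 4, against 29.4% of all tested probes. They were FAS, FADD, BAX and XIAP, and BAD, which was not tested, did so too. In a limma fit with a dye term, the dye effect had an unadjusted p under 0.05 in 6 of 23 genes, CASP9, FADD, TNFRSF1A, BID, FAS and BAX, against 16.6% of probes. It passed the adjusted threshold in 0 probes. The smallest dye p among the genes was 0.00117 for FADD (limma, adjusted p = 0.181). Each orientation holds different pools, so the dye and the pools of an orientation cannot be told apart.

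**Figure D4:**
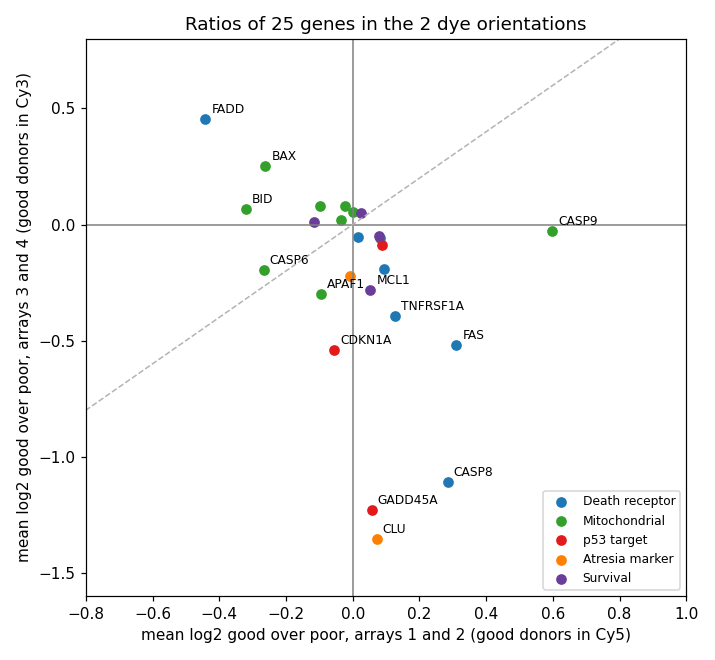
Mean log2 ratio of good over poor on arrays 1 and 2, with good donors in Cy5 (x axis), against that on arrays 3 and 4, with good donors in Cy3 (y axis), for 25 genes coloured by role; the dashed line marks equal values. FADD and BAX lie above 0 on the y axis alone and FAS on the x axis alone, CASP6 lies near the line below 0 on both, and CLU, GADD45A and CASP8 are below -1 on the y axis.

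Other genes of the same pathways were taken from a list of 70 genes, of which 61 had a probe and 58 were tested. Limma called 0 of 58 at an adjusted p of 0.05 and 0 of 58 at an unadjusted p under 0.05, against 0% and 3.55% of all tested probes. Mean ratios were above 0 in 24 of the 61 and below 0 in 37, and 50.8% of all tested probes had a mean below 0. By route, the death receptor genes split 2 above and 11 below 0 with a median of -0.10, and the mitochondrial genes 7 above and 8 below. The p53 genes split 9 and 9, and the survival genes 6 and 9, with medians of 0.0019 and -0.0062.

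Of the 2 genes of each route with the smallest unadjusted p, both were lower in good-donor pools among death receptor and survival genes, both were higher among mitochondrial genes, and the p53 genes had 1 in each direction. TNFRSF21, a death receptor also called DR6, had ratios of 0.02, -0.11, -0.84 and -0.80 with a mean of -0.43 ± 0.45 (SD, n = 4). TNF, the ligand of TNFRSF1A, had a mean of -0.15 ± 0.12 (SD, n = 4) and its 4 poor-donor pools were above its 4 good-donor pools. RRM2B, a ribonucleotide reductase subunit regulated by p53, was the other pathway gene whose pools did not overlap, with the good-donor pools higher at 0.09 ± 0.05 (SD, n = 4). Pools did not overlap in 1.90% of all tested probes. TNF and RRM2B were both dim, with mean log2 intensities of 6.37 and 6.44 in good-donor pools, so these separations are small differences near the control level. XPC, a DNA damage sensor regulated by p53, was higher in the good-donor pool on all 4 arrays, at 0.23 ± 0.21 (SD, n = 4), while GADD45B, a stress gene related to GADD45A, was at -0.19 ± 0.16 (SD, n = 4).

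Among survival genes, BCL2A1, a BCL2 relative found in blood cells, was at -0.46 ± 0.55 (SD, n = 4) and BIRC3, an inhibitor of apoptosis protein, at -0.23 ± 0.26 (SD, n = 4). VDAC2, a channel of the mitochondrial outer membrane, was at 0.14 ± 0.19 and BNIP3L, a mitochondrial BCL2 relative, at 0.18 ± 0.32 (SD, n = 4). The adjusted p was 1.00 for each of these 8 genes. Of the 61 other pathway genes, TNF and TNFRSF1B were lower in good-donor pools on all 4 arrays, against 4.18% of all tested probes. XPC and RRM2B were higher on all 4, against 5.11%. TNFRSF1B and RRM2B were named after their values were seen. TNFRSF1B was dim like TNF and RRM2B, with a mean log2 intensity of 6.46 in good-donor pools.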

How the data were processed

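The files were scanner outputs of 4 two-colour arrays. Per the file headers, each spot has a mean and a median intensity, for its foreground and its background and for Cy5 and Cy3, on a linear scale. Which scanner and software made them is not given in the sources used here. A table of log2 ratios deposited by the authors has unknown normalization and centring. Set against the ratios computed here as good over poor, it had Pearson's r of -0.98, -0.97, -0.96 and -0.98, so it runs as poor over good, with column medians of 0.023, 0.0039, -0.015 and -0.029.

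Mean foreground was corrected by normexp with an offset of 50, then normalized by loess within arrays with control spots at weight 0 and by Aquantile between arrays (limma 3.58.1, R 4.3.3). Dyes were turned to good over poor by the labels. Control spots, 757 dark or negative ones, set a limit in each channel at their 95th percentile, and a probe entered the tests when it was above this limit in at least 4 of 8 channels, as did 31917 of 43794 probes. The mean of 4 ratios was tested against 0 with limma (lmFit, eBayes), two-sided, and p-values were adjusted over these probes by Benjamini-Hochberg, with 3 residual and 1.98 prior degrees of freedom. The number of arrays limits the precision.

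Symbols were taken from an old platform annotation that gives 1 symbol to 21790 probes. The members, their roles, the other gene lists and the tests were chosen with earlier results of these data known. Values in each pool are given for the 2 members of each role with the smallest unadjusted p, for BAX, BCL2 and CLU, and for any member with 1 sign on 4 arrays. From each other pathway list the 2 genes with the smallest unadjusted p are named. Alternatives changed the background correction, foreground, normalization, filter, dye term, moderation, source of values, probe choice and arrays included. Leaving out spots marked as ignored, 2 to 84 on an array, was added after seeing the data.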

Additional observations from a re-analysis of the deposited data

Results flagged for a closer look

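Of 31 sets of 4 ratios examined, 2 had an array far from the others by Dixon's criterion, where chance would give 1.55. The BCL2L11 ratio of array 1 was -0.14, below 0.07 to 0.09 on the other arrays. The median ratio of the atresia genes CLU and GSN on array 1 was 0.96, against -0.93 to -0.65 on the others.

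In 5 genes the good over poor ratios of arrays 1 and 2, with the good-donor pool in Cy5, all had one sign and those of arrays 3 and 4 the other. The mean with the good-donor pool in Cy5 minus that in Cy3 was 0.83 for FAS, -0.90 for FADD, -0.51 for BAX, -0.18 for BAD and 0.13 for XIAP. The dye term gave adjusted p of 0.264 for FAS, 0.181 for FADD, 0.272 for BAX and 0.479 for XIAP in limma. BAD was too dim for a test, so its difference was not tested.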

How the results depend on the processing

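No member and no probe passed the adjusted threshold in any of the 14 alternatives. The mean ratio of CASP6 was below 0 in each of them, and its unadjusted limma p ranged from 0.0394 without a filter to 0.259 with median centring. The count of members at an unadjusted p under 0.05, 1 as reported, was 0 with median foreground, 0 with probes above controls in all 8 channels, 0 with an intensity trend and 0 with the deposited ratios. It stayed at 1 under median centring and under a dye term, but the gene was then CASP9. Leaving out 1 array gave 0 to 5 members, and 5 came without array 1. Members with 1 sign on every array numbered 0 with median foreground and 2, CASP6 and CDKN1A, with the deposited ratios. With median centring there was 1, CASP9 and not CASP6. On 3 arrays, where fewer arrays have to share a sign, there were 3 to 9. Probes at an unadjusted p under 0.05, 1132 as reported, numbered 642 with median centring, 1839 with a dye term and 923 to 1705 without 1 array. The median of the p53 target genes, -0.30 as reported, lay between -0.42 and -0.069 without 1 array. Between 0 and 6 members changed the sign of their mean in an alternative, and CLU, GADD45A, CASP8 and CASP6 in none. XIAP alone moved by more than its SD, to 0.11 with median foreground. Why these values moved was not tested. The comparison is itself paired, since each ratio is taken within an array, and no further replicate block was fitted because the dye orientations share no replicate numbers. BAK1 and BAD were too dim for a test unless the filter was dropped.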
